A study of Mus musculus with 12 samples.

Results

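The genes described here are *Gzma* (granzyme A) and 5 further genes of cytotoxic lymphocytes, *Gzmb*, *Prf1*, *Klrd1*, *Nkg7* and *Fcer1g*, listed by name and followed through every probe set annotated with that symbol alone. The set was selected on *Gzma*, because its αCD3 signal was higher in MED23 null than in control thymocytes, and the other genes were added because they are known from the same kinds of cell. Of the 6 listed genes, 5 have a probe set, and *Nkg7*, which codes for a granule membrane protein, has none with its symbol alone. The 5 genes have 6 probe sets of 12488 on the array. Of these, 4 were bright enough to be tested, with a condition mean of 100 or more somewhere among the 6 conditions, and so were 9478 probe sets in all. Each was measured as a MAS5 signal, a linear fluorescence intensity summarised over the probes of a probe set.

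Total thymocytes came from female C57Bl/6 x 129Sv F1 mice of 6 to 7 weeks. MED23 null mice (*Med23flox/flox;Lck-Cre*) carry a floxed *Med23* allele on both chromosomes and a Cre transgene under the *Lck* promoter. Their controls were *Lck-Cre* mice (*Med23+/+;Lck-Cre*), which have the transgene and intact *Med23*, and *Med23flox/flox* mice, which have the floxed alleles and no Cre. There were 2 mice of each genotype, and the cells of each were rested for 4 h and then treated for 3 h with plate-bound αCD3, an antibody that engages the T-cell receptor complex, or mock treated. This gave 12 arrays from 6 mice. *Lck-Cre* deletes from a late double negative (DN) stage, so earlier DN cells and cells without *Lck* promoter activity keep their floxed alleles, and bulk signals average over all of them. In such bulk RNA, fewer cells of a type and less RNA per cell cannot be told apart.

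Cytotoxic T lymphocytes and natural killer (NK) cells kill through granules that hold perforin, which opens the target membrane, and granzymes, serine proteases that enter through it. Granzyme A has trypsin-like specificity, whereas granzyme B cleaves after aspartate and activates caspases. In the thymus most cells are CD4 CD8 double positive (DP) precursors that have no killing function, and T-cell activation is known to turn granzyme B and perforin on over days.

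*Gzma* lies on chromosome 13 and *Gzmb* in a separate granzyme cluster on chromosome 14. The RefSeq promoter windows of the granzyme that the set was selected on and of the granzyme listed beside it are given for comparison, from 250 bases before to 50 bases after the start of each gene (build GRCm38.p6, minus strand at chr13:113100932-113101231 and chr14:56262285-56262584). Capitals mark matches, on either strand, to the RUNX motif TGTGGTT and the AP-1 motif TGANTCA.
Gzma: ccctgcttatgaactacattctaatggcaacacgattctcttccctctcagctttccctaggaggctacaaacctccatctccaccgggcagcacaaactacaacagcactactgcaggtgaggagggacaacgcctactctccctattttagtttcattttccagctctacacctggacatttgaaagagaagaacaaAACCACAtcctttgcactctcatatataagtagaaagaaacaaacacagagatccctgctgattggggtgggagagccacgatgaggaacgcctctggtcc
Gzmb: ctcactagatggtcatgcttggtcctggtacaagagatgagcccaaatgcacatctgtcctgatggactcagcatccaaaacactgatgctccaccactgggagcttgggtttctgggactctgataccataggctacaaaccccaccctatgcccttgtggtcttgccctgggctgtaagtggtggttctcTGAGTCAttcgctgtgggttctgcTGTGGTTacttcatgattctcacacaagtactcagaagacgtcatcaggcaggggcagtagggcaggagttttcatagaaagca
The RUNX letters occurred once in each window, beginning at base -51 on the reverse strand in *Gzma* and at base -34 on the forward strand in *Gzmb*, where base -1 is the last before the start. They are found in 5.27% of 32851 such windows. The AP-1 letters were in the *Gzmb* window alone of this pair, at base -58, and in 7.81% of all windows. No match to the ETS motif AGGAAG (35.4% of windows), the CRE motif TGACGTCA (1.79%) or the TATA box letters TATAAA (13.6%) fell in either window. No matches overlapped. Of the 6 listed genes, 5 have a window. The ETS letters were found 4 times in that of *Prf1*, 2 times in that of *Fcer1g* and 1 time in that of *Nkg7*. Such matches describe letters and not bound sites.

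*Gzma* was higher in every MED23 null array than in every control array, in both treatments. In αCD3-treated cells its signal was 4252 and 3268 in the 2 MED23 null mice, against 1268 and 1548 in *Lck-Cre* mice and 1368 and 1400 in *Med23flox/flox* mice. In mock-treated cells it was 4825 and 3352 in MED23 null mice, against 1116 and 1238 in *Lck-Cre* mice and 1382 and 1018 in *Med23flox/flox* mice. Replicate 1 of the MED23 null mice was the higher of the pair in both treatments, and the lower replicate still lay well clear of the controls. The suffix of its probe set (_s_at) marks probes that may match more than 1 transcript.

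**Figure D1:**
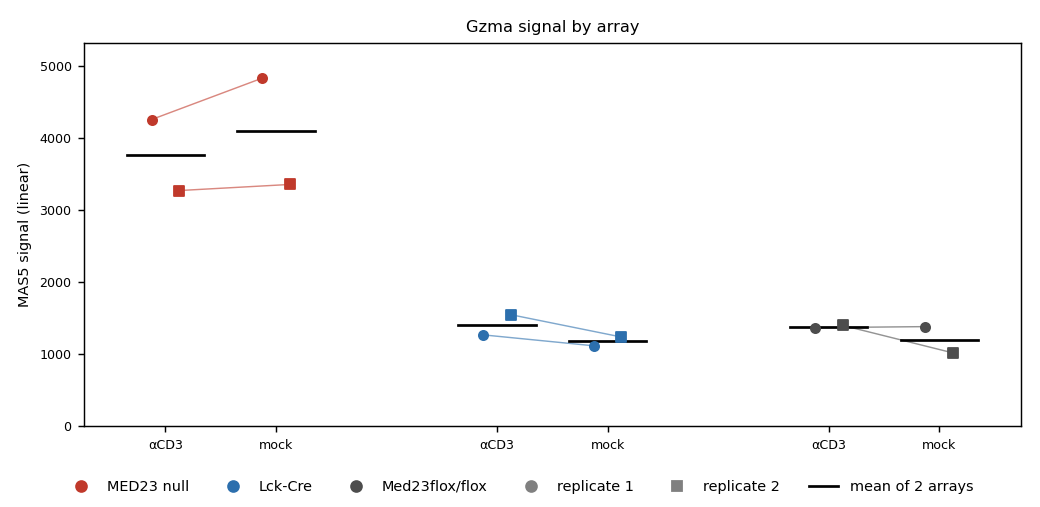
MAS5 signal (linear axis from 0) of *Gzma* on each of the 12 arrays; lines join the αCD3 and mock arrays of 1 mouse and bars are means of 2 arrays. The 4 MED23 null arrays of *Gzma* lie between 3268 and 4825, above the 8 control arrays between 1018 and 1548.

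After αCD3, the values that chose the set, *Gzma* averaged 3760 ± 696 in MED23 null (SD, n = 2) and 1396 ± 116 in control thymocytes (SD, n = 4), a ratio of 2.69. On the scale of log2(signal + 50), the difference was 1.39 (standard error 0.19), and it ranked 8 of 9478 from the top. Against *Lck-Cre* mice alone it was 1.38 and against *Med23flox/flox* mice alone 1.40. These values are given as a description without a test.

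The mock arrays did not choose the set, although they come from the same mice. In mock-treated cells *Gzma* averaged 4089 ± 1041 in MED23 null (SD, n = 2) and 1189 ± 157 in control thymocytes (SD, n = 4), a ratio of 3.44, and the lowest MED23 null array was 2.43 times the highest control array. The log2 difference was 1.73 (standard error 0.21, 95% interval 1.23 to 2.22), rank 4 of 9478. Its unadjusted p was 8.16e-05 and its adjusted p from limma 0.174, which does not pass the threshold of 0.05. No probe set passed in this comparison (0% of 9478, smallest adjusted p 0.0877), while 701 had an unadjusted p under 0.05. With the spread fitted as a trend on signal, a setting that called 2 probe sets in all, the adjusted p of *Gzma* was 0.00814. Both MED23 null arrays lay above all 4 control arrays in mock-treated cells for 9.27% of the tested probe sets, and in αCD3-treated cells for 6.9%.

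Both control genotypes gave the same picture for *Gzma*. In mock-treated cells MED23 null was higher than *Lck-Cre*, which shares the transgene, by 1.73 (adjusted p = 0.318, limma), and higher than *Med23flox/flox*, which shares the floxed alleles, by 1.72 (adjusted p = 0.366, limma). *Lck-Cre* differed from *Med23flox/flox* by -0.013 (95% interval -0.65 to 0.62, adjusted p = 0.998, limma). None of these 3 comparisons called any probe set (0% each). By condition, *Gzma* was highest in the MED23 null cells, at 3760 ± 696 after αCD3 and 4089 ± 1041 after mock treatment, whose ranges overlapped. Below them were αCD3-treated *Lck-Cre* (1408 ± 198) and *Med23flox/flox* cells (1384 ± 22.6), then mock-treated *Lck-Cre* (1177 ± 86.2) and *Med23flox/flox* cells (1200 ± 258; SD, n = 2 throughout). Among the 4 control conditions neighbours differed by less than the spread of their arrays, apart from the step between αCD3-treated and mock-treated *Med23flox/flox* cells, where the mock arrays of 1382 and 1018 still reached into the αCD3 range of 1368 to 1400.

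αCD3 moved *Gzma* little in either group. The ratio of αCD3 to mock signal within a mouse was 0.881 and 0.975 in MED23 null mice, against 1.14 and 1.25 in *Lck-Cre* and 0.990 and 1.38 in *Med23flox/flox* mice. Both MED23 null ratios were below 1, and 3 of 4 control ratios were above 1. The higher MED23 null ratio, 0.975, lay just under the lowest control ratio, 0.990. The share of all probe sets with this order was not counted, and nothing is read from it. The mean was 0.928 ± 0.0661 in MED23 null (SD, n = 2) and 1.19 ± 0.164 in control mice (SD, n = 4). The fitted log2 change was -0.11 in MED23 null (standard error 0.18) and 0.23 in control mice (standard error 0.13), and no test is given, since the αCD3 arrays chose the gene.

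*Gzmb*, the granzyme that activates caspases, had signals between 32.5 and 216.5 over the 12 arrays. In mock-treated cells its signal was 32.5 and 91.1 in MED23 null mice, against 98.6 and 96.0 in *Lck-Cre* and 115.9 and 111.3 in *Med23flox/flox* mice, so that both MED23 null arrays were below all 4 controls, as for 8.44% of the tested probe sets in mock-treated cells and 8.61% after αCD3. The log2 difference of -0.52 (standard error 0.23) had an adjusted p of 0.675 (limma). After αCD3 the signal was 216.5 and 148.1 in MED23 null mice, against 154.3 and 90.8 in *Lck-Cre* and 210.7 and 175.2 in *Med23flox/flox* mice, and the groups overlapped (log2 difference 0.18, 95% interval -0.49 to 0.85, adjusted p = 0.969, limma).

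The αCD3 to mock ratio of *Gzmb* was 6.66 and 1.63 in MED23 null mice, against 1.56 and 0.946 in *Lck-Cre* and 1.82 and 1.57 in *Med23flox/flox* mice. The ratio of 6.66 rests on the mock signal of 32.5, the lowest of the 12 *Gzmb* arrays. The log2 change was 1.09 in MED23 null (unadjusted p = 0.0106, adjusted p = 0.650, limma) and 0.39 in control mice (adjusted p = 0.705, limma). The 2 changes differed by 0.71 (standard error 0.38, adjusted p = 1.00, limma). The same fits called 0.0317% of probe sets for the change in MED23 null mice, 0.148% for that in control mice and 0% for the difference of the changes, and no member was called in any of them.

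*Prf1* codes for perforin, and its arrays scattered more than those of *Gzma*. After αCD3 its signal was 132.9 and 44.7 in MED23 null mice, against 151.8 and 142.0 in *Lck-Cre* and 243.7 and 28.5 in *Med23flox/flox* mice. In mock-treated cells it was 248.8 and 68.3 in MED23 null mice, against 36.1 and 88.5 in *Lck-Cre* and 150.1 and 64.8 in *Med23flox/flox* mice. MED23 null and control arrays overlapped in both treatments. The log2 difference was -0.39 after αCD3 (95% interval -1.65 to 0.86, adjusted p = 0.969) and 0.55 in mock-treated cells (95% interval -0.52 to 1.61, adjusted p = 0.814, both limma), intervals that hold changes of either sign. Within mice, αCD3 over mock was 0.534 and 0.654 in MED23 null mice, against 4.20 and 1.60 in *Lck-Cre* and 1.62 and 0.440 in *Med23flox/flox* mice. The log2 changes were -0.51 in MED23 null and 0.43 in control mice, and their difference of -0.94 (standard error 0.47) had an adjusted p of 0.985 (limma).

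*Klrd1* codes for CD94, which pairs with NKG2 receptors on NK cells and some CD8 T cells. After αCD3 its signal was 241.4 and 315.8 in MED23 null mice, against 238.7 and 214.6 in *Lck-Cre* and 251.3 and 152.9 in *Med23flox/flox* mice. In mock-treated cells it was 260.7 and 282.7 in MED23 null mice, against 293.2 and 222.3 in *Lck-Cre* and 297.8 and 209.3 in *Med23flox/flox* mice. The groups overlapped in both treatments, with log2 differences of 0.32 after αCD3 (95% interval -0.21 to 0.85, adjusted p = 0.913) and 0.086 in mock-treated cells (95% interval -0.35 to 0.52, adjusted p = 0.934, both limma). αCD3 over mock was 0.926 and 1.12 in MED23 null mice, against 0.814 and 0.965 in *Lck-Cre* and 0.844 and 0.731 in *Med23flox/flox* mice. The ratio was below 1 in 4 of 4 control mice, a pattern found in 8.68% of probe sets, with the opposite one in 9.16%, and the control change of -0.21 did not pass (adjusted p = 0.704, limma).

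*Fcer1g* codes for the Fc receptor γ chain, a signalling adaptor of NK, mast and myeloid cells. Both of its probe sets were under the filter in all 6 conditions and were not tested. On the first the signal ran from 14.8 to 35.6 in MED23 null and from 9.1 to 36.8 in control arrays after αCD3, and from 19.6 to 20.6 in MED23 null and from 16.7 to 70.5 in control arrays after mock treatment. On the second it ran from 35.0 to 60.3 in MED23 null and from 12.8 to 98.4 in control arrays after αCD3, and from 16.4 to 110.3 in MED23 null and from 13.6 to 85.7 in control arrays after mock treatment. MED23 null arrays lay inside the control range on the first in both treatments and on the second after αCD3, and on the second 1 mock-treated MED23 null array passed it.

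**Figure D2:**
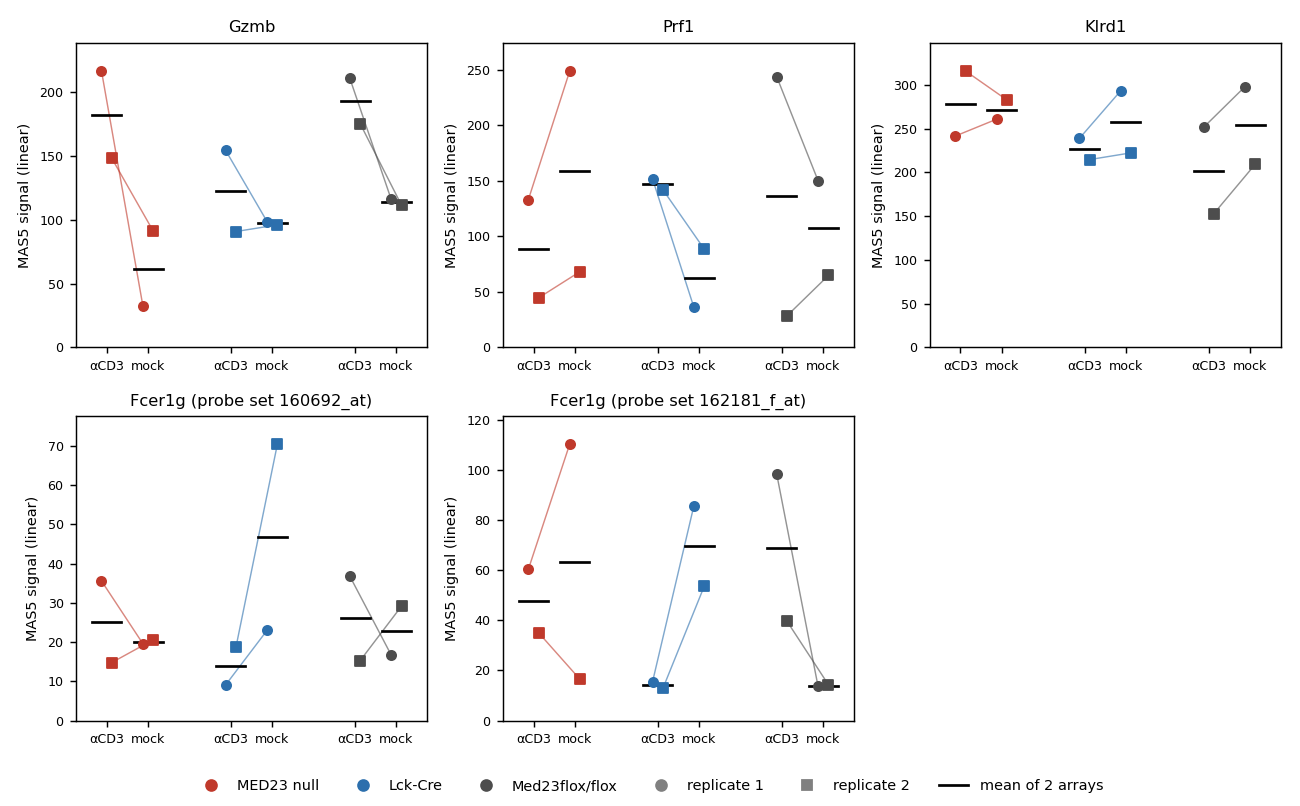
MAS5 signal (linear axes from 0) of the 5 probe sets of *Gzmb*, *Prf1*, *Klrd1* and *Fcer1g* on each array, with lines joining the αCD3 and mock arrays of 1 mouse and bars for means of 2 arrays. MED23 null and control arrays overlap in all panels except mock-treated *Gzmb*, where both MED23 null arrays are the lowest.

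**Figure D3:**
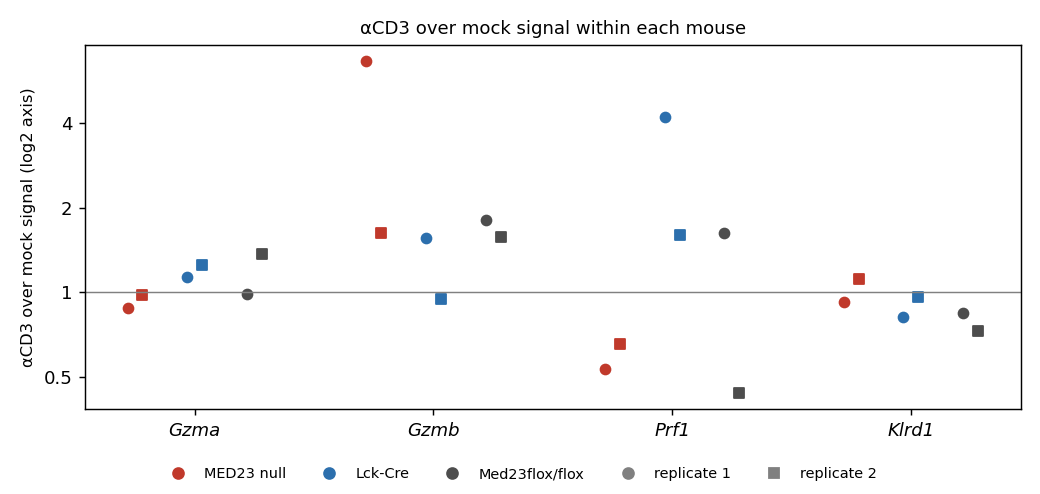
Ratio of αCD3 to mock signal in each mouse (log2 axis) for the 4 genes past the filter; each point is 1 mouse and the grey line is no change. *Gzma* stays between 0.881 and 1.38, while *Gzmb* and *Prf1* reach 6.66 and 4.20 in 1 mouse each.

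**Figure D4:**
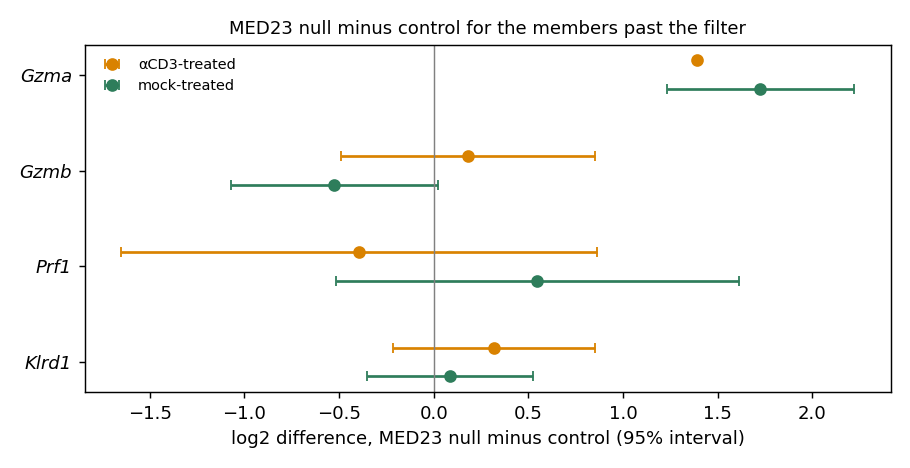
Log2 difference of MED23 null minus control, with 95% intervals from limma, for the genes past the filter in αCD3-treated and mock-treated cells. *Gzma* after αCD3 is drawn as a point without an interval, since those values chose the set; its mock interval runs from 1.23 to 2.22, and those of *Gzmb*, *Prf1* and *Klrd1* include 0.

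All 4 MED23 null arrays lay above all 8 control arrays for *Gzma*, as they did for 80 probe sets, 0.844% of those tested. The αCD3 arrays among them chose *Gzma* and not the other members, so nothing is read from this share or from the absence of the pattern in the other members. Over the 12 arrays, which come from 6 mice, Pearson's r with *Gzma* was -0.21 for *Gzmb*, 0.22 for *Prf1*, 0.34 for *Klrd1* and 0.27 for *Fcer1g*. The probe sets with the most similar profile were *Lmo4* (0.94), which codes for a LIM-only transcriptional adaptor, *Acly* (0.92), the enzyme that makes cytosolic acetyl-CoA, *Acot7* (0.92), an acyl-CoA thioesterase, *Slc35d1* (0.92), a nucleotide-sugar transporter, and *Tk1* (0.92), a thymidine kinase of dividing cells. *Lmo4* averaged 2939 after αCD3 and 2509 after mock treatment in MED23 null cells, against 1155 and 1192 in control cells. Of the 80 probe sets, 4 had a log2 difference of at least 1 in both treatments, *Gzma*, *Lmo4*, *Tk1* and *Phlda1*, the last of which was picked out after its values were seen.

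For the other members the most similar profiles were different. They were *Ighm* (0.87), *Psat1* (0.85) and *Nr4a2* (0.85) for *Gzmb*, *Clec11a* (0.95), *Gap43* (0.93) and *Ikzf4* (0.93) for *Prf1*, *Auh* (0.86), *Kif2c* (0.85) and *Cpt1a* (0.85) for *Klrd1*, and *Ndufaf4* (0.91), *Zmynd8* (0.89) and *Bphl* (0.87) for *Fcer1g*. No gene stood among the most similar of more than 1 member. These r are descriptions of 12 arrays that share mice, and the highest values among all probe sets are high by selection.

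The rest of the cytotoxic apparatus was followed through 4 lists with 66 genes on the array, of which 50 passed the filter. None was called between MED23 null and control in mock-treated or αCD3-treated cells (0% of all probe sets in each), and for none did all MED23 null arrays lie above all control arrays. Of 6 other granzymes, *Gzmc*, *Gzmd*, *Gzmf* and *Gzmk* failed the filter. *Gzmg* averaged 231.8 in mock-treated MED23 null and 162.0 in control cells, but 84.1 and 155.5 after αCD3 (log2 differences 0.43, adjusted p = 0.704, and -0.65, adjusted p = 0.841, limma). *Gzmm*, a granzyme that cleaves after methionine, averaged 51.1 in αCD3-treated MED23 null and 149.0 in control cells (log2 difference -0.79, adjusted p = 0.904, limma).

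In granule loading, exocytosis and inhibition, 16 of 19 genes passed the filter, 8 higher and 8 lower in mock-treated MED23 null cells, with a median log2 difference of -0.014 beside 0.015 over all probe sets. After αCD3, 10 were higher and 6 lower (median 0.080 beside -0.014). *Ctsc*, the dipeptidyl peptidase that activates granzymes, averaged 157.4 in mock-treated MED23 null and 194.1 in control cells (log2 difference -0.20, adjusted p = 0.878, limma). *Serpinb9*, an inhibitor of granzyme B, averaged 461.6 in MED23 null and 456.5 in control cells (0.0092, adjusted p = 0.994, limma). *Srgn*, which codes for the granule proteoglycan serglycin, had a mock signal of 423.0 and 575.4 in MED23 null mice, against 74 and 557.9 in *Lck-Cre* and 537.5 and 423.5 in *Med23flox/flox* mice. Its log2 difference of 0.52 (adjusted p = 0.881, limma) rests on the array at 74 and is -0.024 without *Lck-Cre* replicate 1.

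Of 24 receptors and adaptors of NK and cytotoxic cells, 20 passed the filter, 11 higher and 9 lower in mock-treated MED23 null cells (median 0.078 beside 0.015) and 7 higher and 13 lower after αCD3 (median -0.19 beside -0.014). *Klrc1* codes for NKG2A, the partner of CD94, and averaged 290.5 in mock-treated MED23 null and 227.2 in control cells (log2 difference 0.34, adjusted p = 0.811, limma). *Klrk1*, the activating receptor NKG2D, averaged 109.2 in MED23 null and 53.6 in control cells (0.63, adjusted p = 0.670, limma). Its mock arrays of 135.6 and 82.7 in MED23 null mice were just above the 31.9 to 80.7 of control mice. The same order was found for 9.27% of the tested probe sets. *Klrb1b*, a C-type lectin receptor, had a mock signal of 332.0 and 158.0 in MED23 null mice, against 159.4 and 98.4 in *Lck-Cre* and 88.6 and 66.3 in *Med23flox/flox* mice. The groups overlapped, and the log2 difference of 0.91 (adjusted p = 0.599, limma) is 0.48 without MED23 null replicate 1. *Itgae*, an integrin chain of intraepithelial T cells, averaged 46.6 in MED23 null and 101.0 in control cells (-0.63, adjusted p = 0.599, limma). *Fasl*, a death ligand of killer cells, averaged 23.9 in MED23 null and 75.7 in control cells (-0.61, adjusted p = 0.8004, limma), and is at -0.28 without *Lck-Cre* replicate 1. *Tyrobp*, the adaptor DAP12 that acts beside the Fc receptor γ chain, averaged 262.7 in MED23 null and 228.8 in control cells (0.20, adjusted p = 0.881, limma).

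In the list of cytotoxic lineage factors and cytokines, 12 of 17 genes passed the filter, 6 higher and 6 lower in mock-treated MED23 null cells (median -0.042 beside 0.015) and 8 higher and 4 lower after αCD3 (median 0.085 beside -0.014). *Il18rap*, a subunit of the IL-18 receptor, had the largest difference after αCD3, 139.8 in MED23 null and 53.5 in control cells (log2 difference 0.88, adjusted p = 0.493, limma). *Id2*, a factor needed for NK-cell development, averaged 390.9 in mock-treated MED23 null and 598.2 in control cells (-0.55, adjusted p = 0.619, limma). *Ccl4*, a chemokine that activated T cells release, was the 1 gene of these lists called for αCD3 over mock, in MED23 null mice by 2.51 (adjusted p = 0.0497, limma) and in control mice by 2.76 (adjusted p = 0.00274, limma). The call in MED23 null mice is a borderline one: over 16 alternatives its adjusted p ran from 0.0216 to 0.699, and it passed in 1 of them, a filter of 200, and was lost without any 1 of the 6 mice. The αCD3 to mock ratios of *Gzma* lay between 0.881 and 1.38 over the 6 mice, and its change was not compared with that of *Ccl4*.

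Genes that mark other cells were also examined. Of 15 listed NK-cell markers 8 are on the array, and 4 of these averaged under 100 over the arrays. Among the dim ones was *Ncr1*, the NK receptor NKp46, at 12.4 in mock-treated MED23 null and 13.1 in control cells. The brightest was *Tyrobp*, whose values are given above. Of the 5 genes past the filter, 3 were higher and 2 lower in mock-treated MED23 null cells (median 0.075 beside 0.015). After αCD3, 2 were higher and 3 lower (median -0.28 beside -0.014). The sum of the 8 genes ran from 832 to 863 in mock-treated MED23 null and from 624 to 892 in control arrays. After αCD3 it ran from 658 to 799 in MED23 null and from 681 to 1501 in control arrays. The part of NK cells in the *Gzma* difference was not tested.

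The list for γδ T cells and NKT cells held *Trgv4*, a variable segment of the T-cell receptor γ chain, and it was the 1 gene of all 13 lists whose MED23 null arrays all lay above all control arrays, 0.971% of the 103 list genes past the filter, a share near the 0.844% of all tested probe sets. It is described because of that pattern, and nothing is read from it. The 80 probe sets with this pattern also hold *Trgv1* and a probe set annotated to both *Trgv4* and *Trgv2*. Both were picked out after their values were seen. Whether other γ-chain probe sets lack the pattern was not examined. *Trgv4* had a signal of 813 and 1155 in αCD3-treated MED23 null mice, against 436 and 595 in *Lck-Cre* and 569 and 507 in *Med23flox/flox* mice. In mock-treated cells it was 1013 and 1045 in MED23 null mice, against 559 and 708 in *Lck-Cre* and 664 and 618 in *Med23flox/flox* mice. The log2 difference was 0.83 after αCD3 (adjusted p = 0.597) and 0.66 in mock-treated cells (adjusted p = 0.382, both limma), and neither passed. Replicate 2 of the MED23 null mice had the higher *Trgv4* signal in both treatments, and nothing is read from the order of 2 mice. The summed signal of the 6 genes of this list on the array ran from 2399 to 2401 in mock-treated MED23 null and from 1385 to 2005 in control arrays, and from 2036 to 2522 in MED23 null and from 1662 to 2233 in control arrays after αCD3. By their means, *Trgv4* and *Sox13* gave most of this sum in both groups and treatments, so the sum is not separate from the *Trgv4* pattern. Of the 5 genes of this list past the filter, 4 were higher and 1 lower in mock-treated MED23 null cells (median 0.58 beside 0.015). After αCD3, 2 were higher and 3 lower (median -0.23 beside -0.014). Of the defining genes of the list *Zbtb16*, the NKT-cell factor PLZF, averaged 32.8 in mock-treated MED23 null and 73.8 in control cells and failed the filter. *Sox13*, a γδ lineage factor, averaged 876.9 and 715.2 (0.29, adjusted p = 0.806, limma). The part of these cells in the *Gzma* difference was not tested.

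All 8 markers of mature CD8 single positive thymocytes that passed the filter had lower means in MED23 null cells in both treatments, and none was called. The median log2 difference was -0.34 after αCD3 (beside -0.014) and -0.64 after mock treatment (beside 0.015). *Klf2* averaged 40.5 in mock-treated MED23 null and 217.4 in control cells (-1.23, adjusted p = 0.738, limma). The paper reports normal proportions of DN, DP and single positive thymocytes. It also reports lower *Klf2* mRNA, and *S1pr1* mRNA tending lower, in isolated MED23 null CD4 single positive cells. The list therefore does not read CD8 cells alone. *Ccr7*, a homing receptor of mature thymocytes, averaged 371.1 in mock-treated MED23 null and 981.0 in control cells (-1.26, adjusted p = 0.328, limma), and *S1pr1*, the receptor for thymic egress, 67.4 and 170.7 (-0.91, adjusted p = 0.219, limma). *Cd8b1*, a chain of the CD8 coreceptor, averaged 17065 and 22882 (-0.43, adjusted p = 0.599, limma), and *Cd8a* 8599 and 9741 (-0.16, adjusted p = 0.888, limma). The summed signal ran from 26069 to 28957 in mock-treated MED23 null and from 34254 to 36918 in control arrays, and from 26050 to 28079 in MED23 null and from 28776 to 33099 in control arrays after αCD3, without overlap in either treatment. *Cd8a* and *Cd8b1*, which DP cells also express and which the DP list shares, gave 87.8% to 94.6% of it. Without these genes, the 6 others summed to between 1796 and 1903 in mock-treated MED23 null and between 2581 and 4189 in control arrays, and to between 1455 and 1503 in MED23 null and between 2139 and 2704 in control arrays after αCD3. DP markers had sums of 73018 to 79266 in mock-treated MED23 null and 92034 to 97035 in control arrays, with 6 of 8 genes lower (median -0.25). After αCD3 the DP sums were 75758 to 77699 in MED23 null and 83097 to 86725 in control arrays. Without *Cd8a* and *Cd8b1*, the DP sums of 49181 to 53104 in MED23 null and 52702 to 59133 in control arrays overlapped after αCD3, and those of 48851 to 52106 in MED23 null and 58791 to 64138 in control arrays after mock treatment did not.

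In mock-treated cells, mast cell and basophil markers summed to between 1701 and 1710 in MED23 null and between 1044 and 1353 in control arrays. Of the 9 genes in this sum, 5 averaged under 100 over the arrays. Its largest part came from *Tpsb2*, picked out after its values were seen, at 812.4 in MED23 null and 596.1 in control cells. Of the 6 genes past the filter, 5 were higher and 1 lower (median 0.55 beside 0.015). *Ms4a2*, the Fc receptor β chain, averaged 108.2 in MED23 null and 43.8 in control cells. After αCD3 the sums of these markers ranged from 1228 to 1275 in MED23 null and from 1041 to 1223 in control arrays. Then 3 of the 6 genes were higher and 3 lower (median -0.21 beside -0.014), with *Ms4a2* at 47.8 in MED23 null and 93.4 in control cells. B-cell markers summed to between 8923 and 9268 in MED23 null and between 7766 and 8194 in control arrays after mock treatment, and between 9940 and 10008 in MED23 null and between 7578 and 9007 in control arrays after αCD3. *Ighm* gave most of these sums, with means of 5897 in mock-treated MED23 null and 5124 in control cells. The median log2 difference of the B-cell list was 0.15 after mock treatment and 0.083 after αCD3. Erythroid markers, led by *Hba-a1*, summed to between 16504 and 39179 in αCD3-treated MED23 null and between 6865 and 15988 in control arrays, and overlapped in mock-treated cells (15560 to 37844 in MED23 null and 7062 to 17354 in control arrays). Replicate 1 of the MED23 null mice had the highest erythroid sum in both treatments, and nothing is read from the order of these mice. In mock-treated cells myeloid sums of 6647 to 7524 in MED23 null and 4853 to 7165 in control arrays overlapped, as did DN sums of 1953 to 2205 and 1574 to 2153. No gene of these 9 lists was called between MED23 null and control in either treatment, and their part in the *Gzma* difference was not tested.

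**Figure D5:**
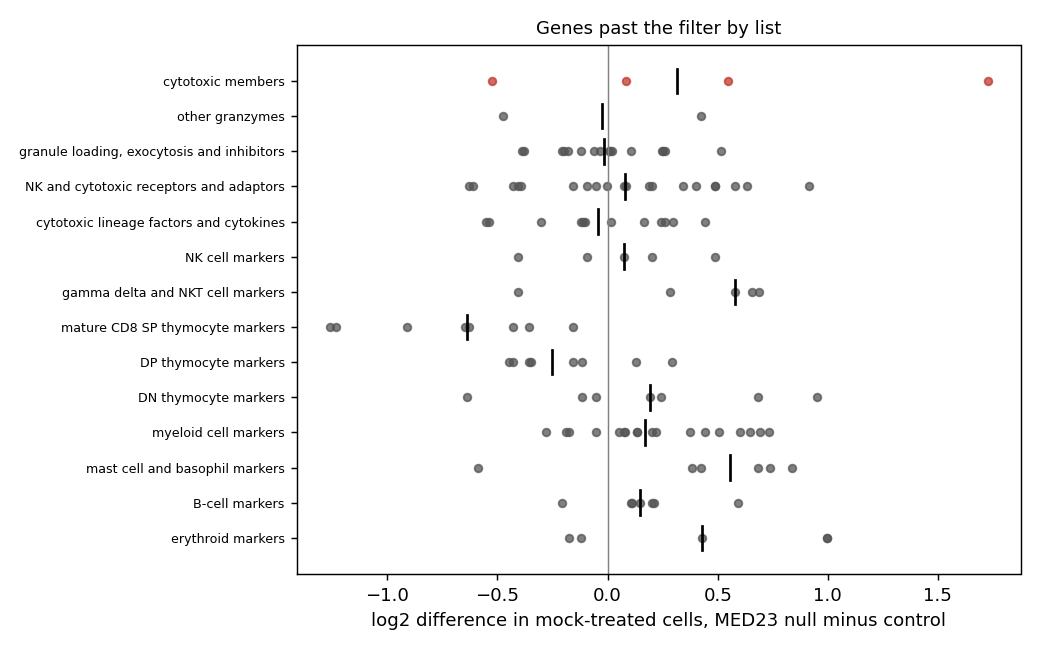
Log2 difference of MED23 null minus control in mock-treated cells for each gene past the filter, by list; each point is 1 gene and black bars are medians. *Gzma*, at 1.73, lies to the right of every other gene shown, and the mature CD8 single positive markers all lie left of 0.

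The targeted gene was lower in MED23 null cells without passing the test. *Med23* had a signal of 252 and 239 in αCD3-treated MED23 null mice, against 310 to 489 in control mice, and of 268 and 207 in mock-treated MED23 null mice, against 288 to 424 in control mice. The log2 difference was -0.59 after αCD3 (adjusted p = 0.738) and -0.53 in mock-treated cells (adjusted p = 0.621, both limma), and it was not established that its probes fall within the exons that Cre removes. One array stood apart, the αCD3 array of *Med23flox/flox* replicate 1, with a lower quartile of 85.2 against at most 58.2 on the other 11 and a mean correlation of 0.905 against 0.937 to 0.945. Without this mouse the αCD3 difference between MED23 null and control was 1.38 for *Gzma*, 0.30 for *Gzmb*, -0.14 for *Prf1* and 0.39 for *Klrd1*. The ratio of 3′ to 5′ β-actin signal, a sign of RNA integrity, was 1.90 and 1.61 on the αCD3 arrays of MED23 null mice, against 1.35 to 1.41 on those of control mice, and in mock-treated cells it was 1.44 and 1.63, against 1.35 to 1.60. The same ratio for *Gapdh* was 0.636 and 0.766 on the αCD3 arrays of MED23 null mice, against 0.599 to 0.648 on those of control mice. In mock-treated cells it was 0.664 and 0.635, against 0.580 to 0.693, and the groups overlapped in both treatments. The part of either ratio in the *Gzma* values was not tested.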

How the data were processed

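Total thymocytes of 6 mice were profiled on 12 Affymetrix murine genome arrays, and groups were taken from the sample labels. The authors computed the deposited values as MAS5 signals, an intensity on a linear scale; a version of MAS5 is not given in the sources used here. As in the study, arrays were scaled to 1 baseline array by a trimmed mean, here with 2% off each end, which changed no array by more than 0.00603%. In place of detection calls, a probe set was kept if its mean reached 100 in any of the 6 conditions, which retained 9478 of 12488 after removal of 66 control probe sets. Arrays give no read depth, so their number limits the precision.

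Values were taken as log2(signal + 50), so differences of dim genes are understated, and fitted in R 4.3.3 with limma 3.58.1 (eBayes, Benjamini-Hochberg over all 9478, threshold 0.05). MED23 null and control mice (both control genotypes together) were compared in mock-treated and αCD3-treated cells with 4 residual degrees of freedom, each control genotype in 3-group fits with 3, and αCD3 with mock as differences within a mouse, paired by the mouse that the labels name. The deviations of paired arrays correlated at 0.0940, 0.149 and 0.0610 in *Lck-Cre*, *Med23flox/flox* and MED23 null mice. In all 10 comparisons were made, and *Gzma* has no test in those with αCD3 arrays. The fits were tested on simulated data. Figures were drawn with Python 3.11.15 and matplotlib 3.10.9.

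The members and gene lists were chosen with earlier results of these data known. Named genes are the members, *Med23*, up to 4 genes of each list with the largest MED23 null minus control difference or a named role beside a member, and the 5 (*Gzma*) or 3 (other members) most correlated probe sets; others are said to be picked after their values were seen. Each listed gene is represented by its brightest probe set with 1 symbol. Symbols come from the platform annotation, which gives 1 symbol for 10855 probe sets, several for 396 and none for 1237; *Trgv4* was listed by an older symbol and matched through RefSeq. Promoter windows are from RefSeq. Alternatives were other pseudocounts (16 and 100), filters (none and 200), median or quantile scaling, a variance trend, each mouse left out, 1 control genotype only and the block.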

Additional observations from a re-analysis of the deposited data

Results flagged for a closer look

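The change of *Gzma* with αCD3 ran in opposite directions in MED23 null and *Lck-Cre* mice: the log2 change was below 0 in both MED23 null mice and above 0 in both *Lck-Cre* mice, a difference of -0.35 that was not tested. *Prf1* showed the same, with a difference of -1.36 that did not pass when MED23 null mice were set against *Lck-Cre* mice alone (adjusted p = 0.885, limma). The share of all tested probe sets with such opposite directions was not counted, so nothing is read from the pattern in either gene. In 18 sets of 4 control values of the members, none held a value far from the other 3, where chance alone gives about 1 in 20.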

How the results depend on the processing

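The mock difference of *Gzma* between MED23 null and control stayed between 1.47 and 1.99 over 16 alternatives, with adjusted p from 0.00814 to 0.536. It passed with a variance trend alone (1.73, adjusted p = 0.00814), which called 1 member there and 1 member against *Lck-Cre* (*Gzma*, 1.73, adjusted p = 0.0482), against 0 members otherwise. Over all probe sets that setting called 2 in mock-treated cells, 5 in αCD3-treated cells and 3 against *Lck-Cre* in mock-treated cells, against 0, and a filter of 200 called 1 in mock-treated cells; the cause was not tested. With 1 mouse left out in turn, the αCD3 difference of *Gzma* ranged from 1.20 to 1.58, the lowest without MED23 null replicate 1 and the highest without replicate 2. Directions turned only in differences that had not passed the test. With 1 mouse left out in turn these ranged from -0.12 (without MED23 null replicate 1) to 1.22 for *Prf1* in mock-treated cells, from -0.87 to 0.081 (without MED23 null replicate 2) for *Prf1* after αCD3, from -0.033 (without MED23 null replicate 1) to 0.39 for *Gzmb* after αCD3, from -0.093 (without MED23 null replicate 2) to 0.14 for αCD3 over mock of *Klrd1* in MED23 null mice, and from -0.22 to 0.20 (without *Med23flox/flox* replicate 1) for *Gzma* between *Lck-Cre* and *Med23flox/flox* in mock-treated cells, which was 0.059 without *Lck-Cre* replicate 1 and 0.00074 with quantile scaling. With *Med23flox/flox* controls alone, *Gzmb* after αCD3 was -0.077. The labels' replicate number as a replicate block gave *Gzma* an adjusted p of 0.307 in mock-treated cells (difference 1.73) and called no member. Without the pairing by mouse no member was called, and calls over all probe sets for αCD3 over mock in control mice went to 42, against 14 with it; other alternatives gave 0 to 33. In MED23 null mice 3 were called, against 0 to 3 over the alternatives. Leaving out each mouse for the listed genes named above, following *Ccl4* over the alternatives and leaving *Cd8a* and *Cd8b1* out of the sums were chosen after seeing the data.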
